A study of Saccharomyces cerevisiae with 8 samples.

Results

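The 10 histone genes of Saccharomyces cerevisiae were followed across 3 strains that all carried a deletion of IRE1. They were found by systematic name: the H2A genes HTA1 (YDR225W) and HTA2 (YBL003C), the H2B genes HTB1 (YDR224C) and HTB2 (YBL002W), the H3 genes HHT1 (YBR010W) and HHT2 (YNL031C), the H4 genes HHF1 (YBR009C) and HHF2 (YNL030W), the H2A variant gene HTZ1 (YOL012C) and the linker histone gene HHO1 (YPL127C). They were 10 of the 6576 systematic names on the arrays, and all 10 were among the 6244 genes tested. The SSZ1OEΔire1Δscj1 strain (n = 3) lacked IRE1 and SCJ1 and overexpressed SSZ1. The SSZ1OEΔire1 strain (n = 2) lacked IRE1 and overexpressed SSZ1, and the Δire1 strain (n = 3) carried the IRE1 deletion with no other change named in its label. IRE1 encodes the sensor of unfolded proteins in the endoplasmic reticulum, SSZ1 a ribosome-associated Hsp70-type chaperone, and SCJ1 an Hsp40-type co-chaperone of the endoplasmic reticulum. Cultures were harvested in early log phase from synthetic medium at 30 °C. The labels do not name the promoter or plasmid behind the SSZ1 overexpression, and a strain with an intact IRE1 was not analysed here, so the differences below are differences among Δire1 strains.

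Budding yeast makes each core histone from a pair of gene copies. These lie at 4 loci, in each of which an H2A gene faces an H2B gene, or an H3 gene an H4 gene, across a shared promoter from which they are transcribed in opposite directions. Core histone genes are transcribed around the start of DNA replication, when new nucleosomes are needed. The activators SBF and Spt10 with Spt21 promote this transcription, and the HIR complex with Asf1 and Rtt106 represses all of these loci except HTA2-HTB2 outside S phase. Unlike most histone mRNAs of animals, those of yeast carry a poly(A) tail and can be primed with oligo-dT, as was done here. Htz1 takes the place of H2A in nucleosomes beside promoters, where the SWR1 complex deposits it, and Hho1 is the yeast counterpart of the linker histone H1.

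Each gene's level was the log2 processed signal of its probe minus the 75th percentile of its array, so values of 1 gene can be set against each other across arrays, and values of different genes cannot. In the SSZ1OEΔire1Δscj1 strain SSZ1 stood at 5.42, 5.19 and 5.51, against 5.61 and 6.07 in the SSZ1OEΔire1 strain and 3.06, 2.79 and 3.05 in the Δire1 strain. SCJ1 did not stand well above background on the 3 SSZ1OEΔire1Δscj1 arrays and did so on the other 5, and IRE1 did not clear the background on any array. The 75th percentile signal was 9041 to 10016.5 on the SSZ1OEΔire1Δscj1 arrays and 5037 to 7152 on the others, a difference that cannot be told apart from the strain. All 8 arrays lay on 1 slide, with the SSZ1OEΔire1 arrays and Δire1 replicates 1 and 2 in slide row 1 and the rest in row 2. Δire1 replicate 2 stood apart: it differed from replicates 1 and 3 by a median of 0.21 and 0.20 over all genes, while those 2 differed from each other by 0.056. Over the 10 histone genes replicates 1 and 3 differed by a median of only 0.014, but LEU2, often used as a marker gene, was at 0.48, -0.02 and 2.73 on Δire1 replicates 1, 2 and 3, so they were kept as separate samples. The labels do not give the markers or plasmids of these samples, and whether the 3 Δire1 samples are alike in genotype was not tested. Each histone gene had 1 probe, printed in at least 9 spots an array, and 768 of 768 of these spots were well above background with none saturated. The SD among the spots of a histone probe on 1 array was 0.015 to 0.11, with a median of 0.043.

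Core and linker histone mRNAs fell by 18.4% to 34% in the SSZ1OEΔire1Δscj1 strain against Δire1, and those of HTB1, HHF1 and HHF2 fell by 26.2% to 28.4% in the SSZ1OEΔire1 strain. With scaling on spike-in probes 0 of the 10 genes were called in either strain. Of all genes 1.06% (SSZ1OEΔire1Δscj1) and 0.24% (SSZ1OEΔire1) then fell. Against Δire1, 9 of the 10 genes fell in the SSZ1OEΔire1Δscj1 strain, all but HTZ1, with a median log2 difference of -0.32 (limma, Benjamini-Hochberg adjusted p under 0.05). The arrays of all 10 genes were lower than every Δire1 array. Over all genes tested 16.9% fell in that comparison (21.3% rose), and 23.3% had every array lower. In the SSZ1OEΔire1 strain 3 of the 10 fell against Δire1, with a median of -0.37, and for 8 of the 10 both arrays were lower than every Δire1 array. There the backgrounds were 3.88% of genes that fell (7.48% rose) and 19.5% with every array lower. At an unadjusted p under 0.05, 9 of the 10 were lower in the SSZ1OEΔire1 strain, beside 11.3% of all genes. The medians over all genes tested were 0.019 and 0.026 in the 2 comparisons, in that order. Both comparisons use the same 3 Δire1 arrays, so they are not independent of each other.

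**Figure D1:**
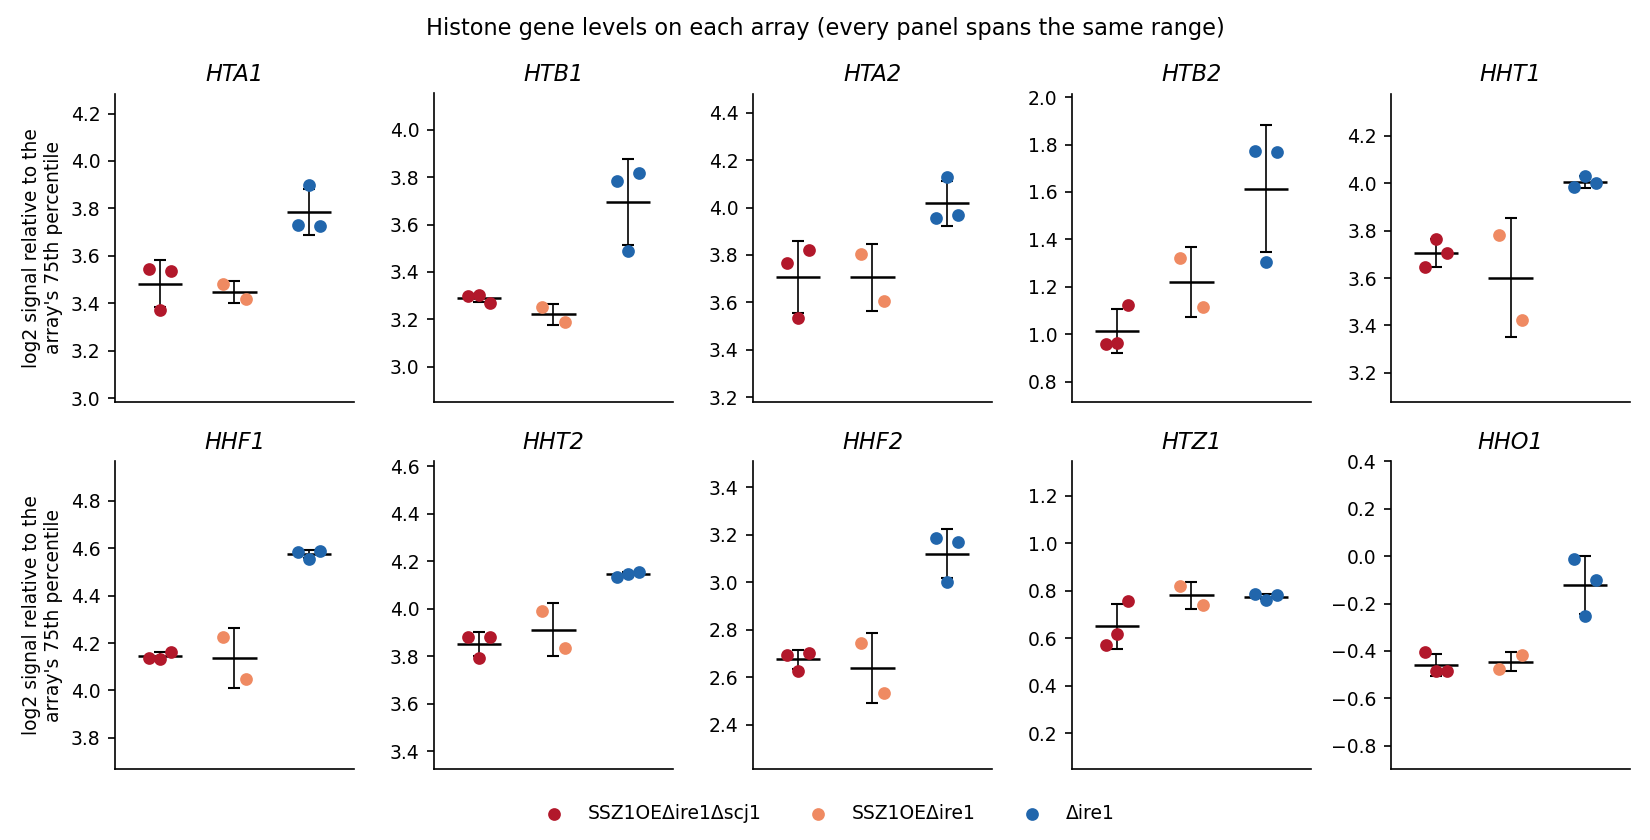
Each panel plots 1 histone gene on the 8 arrays as log2 signal scaled to the 75th percentile of its array, with SSZ1OEΔire1Δscj1 on the left, SSZ1OEΔire1 in the middle and Δire1 on the right. Points are arrays, horizontal lines are means and bars are SDs. The Δire1 points lie highest in 8 panels. The exceptions are HTB2, where 1 Δire1 array overlaps with SSZ1OEΔire1, and HTZ1, where the SSZ1OEΔire1 arrays reach as high.

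The calls, of histone genes as of all genes, depended on single arrays. Without Δire1 replicate 3, the array with the highest LEU2, 2 histone genes fell in the SSZ1OEΔire1Δscj1 strain and 0 in the SSZ1OEΔire1 strain. Over all genes 9.63% and 1.11% then fell. Leaving out Δire1 replicate 1 gave 5 and 1 histone genes, beside 10.3% and 1.51% of all genes. Leaving out Δire1 replicate 2, the array that stood apart, gave 7 and 6 histone genes, beside 23.5% and 9.47% of all genes. Leaving out SSZ1OEΔire1 replicate 2 leaves 1 array of that strain, with a histone median of -0.30 against Δire1. With slide row as a block 4 fell in the SSZ1OEΔire1Δscj1 strain and 0 in the SSZ1OEΔire1 strain, beside 5.89% and 1.11% of all genes. In the SSZ1OEΔire1 strain this fit gave the same result as leaving out Δire1 replicate 3, so these settings are not separate evidence there. The sizes moved less: within slide row 2 the median over the histone genes was -0.33 for 3 SSZ1OEΔire1Δscj1 arrays against 1 Δire1 array, and within slide row 1 it was -0.35 for 2 SSZ1OEΔire1 arrays against 2 Δire1 arrays. For SSZ1OEΔire1Δscj1 against SSZ1OEΔire1 no slide row held both strains, so the row and the strain cannot be told apart there.

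At the HTA1-HTB1 locus, the H2A gene HTA1 stood at 3.54, 3.37 and 3.54 in the SSZ1OEΔire1Δscj1 strain, 3.48 and 3.42 in the SSZ1OEΔire1 strain and 3.73, 3.90 and 3.73 in the Δire1 strain. All 5 arrays with overexpressed SSZ1 were below all 3 Δire1 arrays. HTA1 fell by 0.30 on the log2 scale (SE 0.082, adjusted p = 0.0241), or 18.9%, in the SSZ1OEΔire1Δscj1 strain, while its difference of -0.34 (SE 0.092, adjusted p = 0.0567) in the SSZ1OEΔire1 strain missed the threshold. The H2B gene HTB1 stood at 3.30, 3.30 and 3.27 in the SSZ1OEΔire1Δscj1 strain, 3.25 and 3.19 in the SSZ1OEΔire1 strain and 3.78, 3.49 and 3.82 in the Δire1 strain. The groups did not overlap, although Δire1 replicate 2 was nearer to the other strains than to its fellow replicates. HTB1 fell by 0.41 (SE 0.096, adjusted p = 0.0145) in the SSZ1OEΔire1Δscj1 strain and by 0.48 (SE 0.11, adjusted p = 0.033) in the SSZ1OEΔire1 strain, where the call was lost in 8 of 18 alternative settings.

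At HTA2-HTB2, the locus outside HIR control, the H2A gene HTA2 stood at 3.76, 3.53 and 3.82 in the SSZ1OEΔire1Δscj1 strain, 3.81 and 3.61 in the SSZ1OEΔire1 strain and 3.96, 4.13 and 3.97 in the Δire1 strain. The Δire1 arrays were all above those of the other strains, with replicate 2 the highest. HTA2 fell by 0.31 (SE 0.10, adjusted p = 0.0465) in the SSZ1OEΔire1Δscj1 strain, a call that was lost in 11 of 19 alternative settings with its sign kept and that turned to 0.014 with quantile normalization. Its difference in the SSZ1OEΔire1 strain was -0.31 (SE 0.12, adjusted p = 0.124). The H2B gene HTB2 stood at 0.96, 0.96 and 1.12 in the SSZ1OEΔire1Δscj1 strain, 1.32 and 1.11 in the SSZ1OEΔire1 strain and 1.77, 1.30 and 1.77 in the Δire1 strain. HTB2 had the lowest estimate of the family in the SSZ1OEΔire1Δscj1 strain, where it fell by 0.60 (SE 0.14, adjusted p = 0.0136), or 34%. In the SSZ1OEΔire1 strain, whose arrays overlapped with Δire1 replicate 2, the difference of -0.40 (SE 0.16, adjusted p = 0.146) was not past the test.

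At HHT1-HHF1, the H3 gene HHT1 stood at 3.65, 3.76 and 3.70 in the SSZ1OEΔire1Δscj1 strain, 3.78 and 3.42 in the SSZ1OEΔire1 strain and 3.98, 4.03 and 4.002 in the Δire1 strain. The 2 SSZ1OEΔire1 arrays (SD 0.25) were further apart than in any other histone gene, and the 3 Δire1 arrays lay close together (SD 0.025). HHT1 fell by 0.30 (SE 0.097, adjusted p = 0.0437) in the SSZ1OEΔire1Δscj1 strain, a call lost in 10 of 19 alternative settings, and its difference was -0.40 (SE 0.11, adjusted p = 0.0552) in the SSZ1OEΔire1 strain. The H4 gene HHF1 stood at 4.14, 4.13 and 4.16 in the SSZ1OEΔire1Δscj1 strain, 4.23 and 4.05 in the SSZ1OEΔire1 strain and 4.58, 4.55 and 4.59 in the Δire1 strain. The Δire1 arrays lay above all others and close together, and those of the 2 strains with overexpressed SSZ1 overlapped. HHF1 fell by 0.43 (SE 0.069, adjusted p = 0.00386) in the SSZ1OEΔire1Δscj1 strain and by 0.44 (SE 0.077, adjusted p = 0.0146) in the SSZ1OEΔire1 strain, or 25.9% and 26.2%. The call in the SSZ1OEΔire1 strain was lost in 6 of 18 alternative settings.

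At HHT2-HHF2, the H3 gene HHT2 stood at 3.88, 3.79 and 3.88 in the SSZ1OEΔire1Δscj1 strain, 3.99 and 3.83 in the SSZ1OEΔire1 strain and 4.14, 4.14 and 4.15 in the Δire1 strain. The Δire1 arrays were nearly level and above the rest. HHT2 fell by 0.29 (SE 0.069, adjusted p = 0.0143) in the SSZ1OEΔire1Δscj1 strain, which turned to 0.056 with quantile normalization, and differed by -0.23 (SE 0.077, adjusted p = 0.0952) in the SSZ1OEΔire1 strain. The H4 gene HHF2 stood at 2.70, 2.63 and 2.70 in the SSZ1OEΔire1Δscj1 strain, 2.74 and 2.54 in the SSZ1OEΔire1 strain and 3.19, 3.00 and 3.17 in the Δire1 strain. No array of the first 2 strains reached the lowest Δire1 array. HHF2 fell by 0.45 (SE 0.085, adjusted p = 0.00701) in the SSZ1OEΔire1Δscj1 strain and by 0.48 (SE 0.095, adjusted p = 0.0215) in the SSZ1OEΔire1 strain. The latter call was lost in 6 of 18 alternative settings.

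Of the histone genes outside the core set, HHO1 was called in the SSZ1OEΔire1Δscj1 strain and HTZ1 was not, and neither was called in SSZ1OEΔire1. They were not tested against each other. The H2A.Z gene HTZ1 stood at 0.57, 0.62 and 0.76 in the SSZ1OEΔire1Δscj1 strain, 0.82 and 0.74 in the SSZ1OEΔire1 strain and 0.78, 0.76 and 0.78 in the Δire1 strain. It was past the test in neither strain, with differences of -0.13 (95% interval -0.29 to 0.041, adjusted p = 0.20) and 0.0048 (95% interval -0.18 to 0.19, adjusted p = 0.979) against Δire1. With scaling on spike-in probes these differences were 0.16 and 0.18. The H1 gene HHO1 stood at -0.40, -0.49 and -0.49 in the SSZ1OEΔire1Δscj1 strain, -0.47 and -0.42 in the SSZ1OEΔire1 strain and -0.01, -0.25 and -0.10 in the Δire1 strain. All 5 arrays with overexpressed SSZ1 lay below the 3 Δire1 arrays. HHO1 fell by 0.34 (SE 0.080, adjusted p = 0.0145) in the SSZ1OEΔire1Δscj1 strain and differed by -0.32 (SE 0.089, adjusted p = 0.0582) in the SSZ1OEΔire1 strain. CSE4, which encodes the H3 variant of centromeres and is not one of the 10 genes, stood at -1.56, -1.94 and -1.72 in the SSZ1OEΔire1Δscj1 strain, -2.17 and -2.05 in the SSZ1OEΔire1 strain and -2.57, -2.07 and -2.59 in the Δire1 strain. CSE4 rose by 0.67 (SE 0.16, adjusted p = 0.0152) in the SSZ1OEΔire1Δscj1 strain, with a difference of 0.30 (SE 0.18, adjusted p = 0.317) in the SSZ1OEΔire1 strain.

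**Figure D2:**
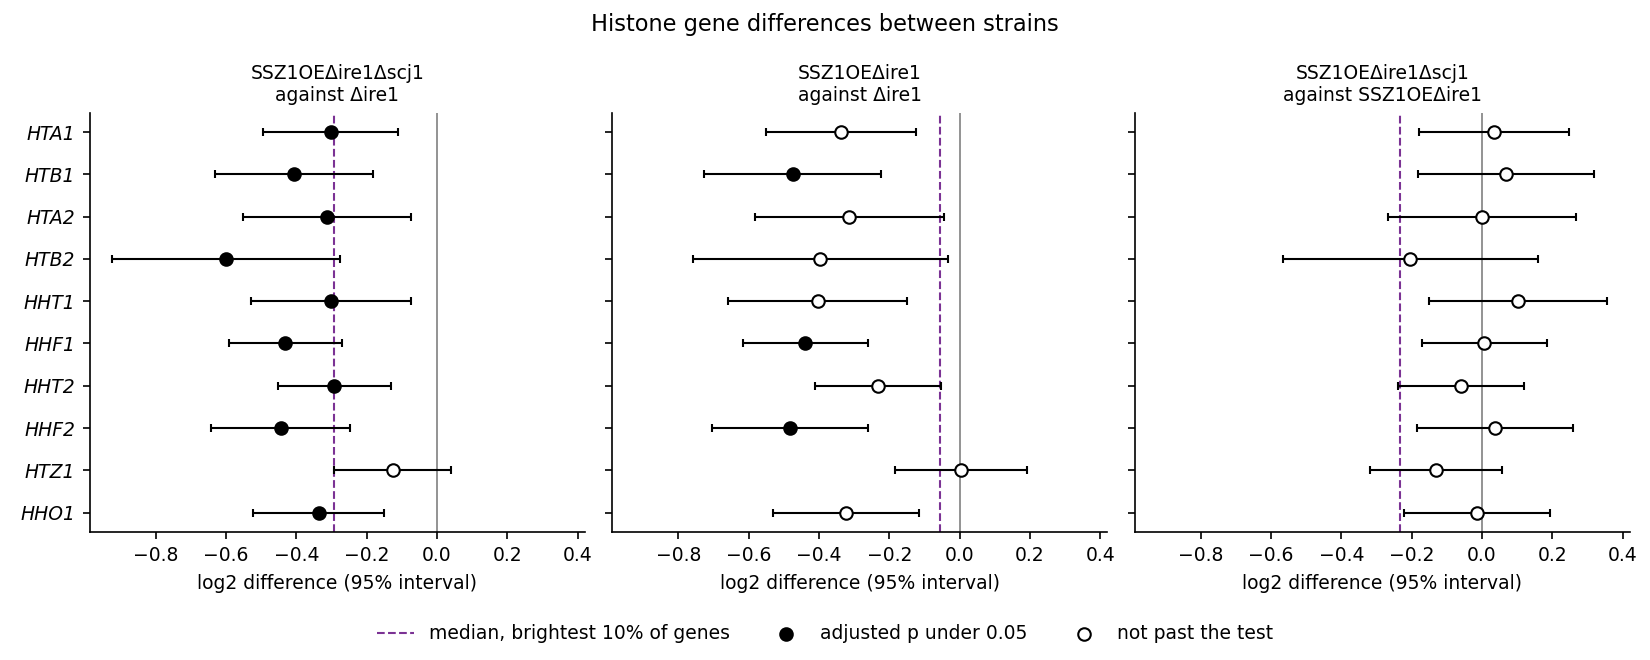
Each row is 1 histone gene and each panel 1 comparison, SSZ1OEΔire1Δscj1 against Δire1, SSZ1OEΔire1 against Δire1 and SSZ1OEΔire1Δscj1 against SSZ1OEΔire1. Circles are log2 differences with 95% intervals from limma, filled where the adjusted p is under 0.05 (9, 3 and 0 genes), and dashed lines are the medians of the brightest 10% of genes (-0.29, -0.055 and -0.23). The first 2 panels share the Δire1 arrays, and with quantile normalization HTA2 and HHT2 of the first panel lie above 0.

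Between the 2 strains with overexpressed SSZ1, whose labels differ by the SCJ1 deletion, no change in histone mRNAs was detected. SSZ1 itself was lower in the SSZ1OEΔire1Δscj1 strain (5.42, 5.19 and 5.51) than in the SSZ1OEΔire1 strain (5.61 and 6.07). No slide row held both strains, so the loss of SCJ1 cannot be told apart from these differences. For SSZ1OEΔire1Δscj1 against SSZ1OEΔire1 the limma fit called 0 of the 10 genes, and 0 of 10 had an unadjusted p under 0.05, beside 11.9% of all genes called (5.57% lower and 6.28% higher) and 31.8% with an unadjusted p under 0.05. The median difference of the histone genes was 0.0036, beside -0.0046 over all genes. The estimates ran from -0.20 (HTB2, 95% interval -0.57 to 0.16) to 0.10 (HHT1, 95% interval -0.15 to 0.36), and the intervals of all 10 genes held 0. For HTB1 every SSZ1OEΔire1Δscj1 array was above both SSZ1OEΔire1 arrays, and for the other 9 genes the arrays overlapped, while 59% of all genes had arrays that did not overlap. With quantile normalization the median was 0.26 and 1 gene was called, beside 666 of all 6244 genes: HHF1 was then higher by 0.39 (adjusted p = 0.027).

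Histone probes are bright, and bright probes as a class were lower in the SSZ1OEΔire1Δscj1 strain. Ranked by signal over the 8 arrays, which is a property of the probes and not a measure of transcript number, 7 of the 10 lay in the brightest of 10 equal bins of the genes tested, HTB2 and HTZ1 in bin 9 and HHO1 in bin 7. In SSZ1OEΔire1Δscj1 against Δire1 the brightest bin had a median difference of -0.29, 49.1% of its 625 genes fell and 56.3% had every array lower. The histone median of -0.32 was close to that, and the 7 histone genes of this bin lay at -0.45 to -0.29. HTB2 and HHO1 lay below the medians of their own bins, which were -0.10 and 0.0016. In SSZ1OEΔire1 against Δire1 the brightest bin had a median of -0.055, with 5.92% fallen and 25.6% with every array lower, beside the histone median of -0.37. In SSZ1OEΔire1Δscj1 against SSZ1OEΔire1 the brightest bin had a median of -0.23, with 20% lower, beside 0.0036 for the histone genes. Whether the signal level had a part in the histone differences was not tested.

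**Figure D3:**
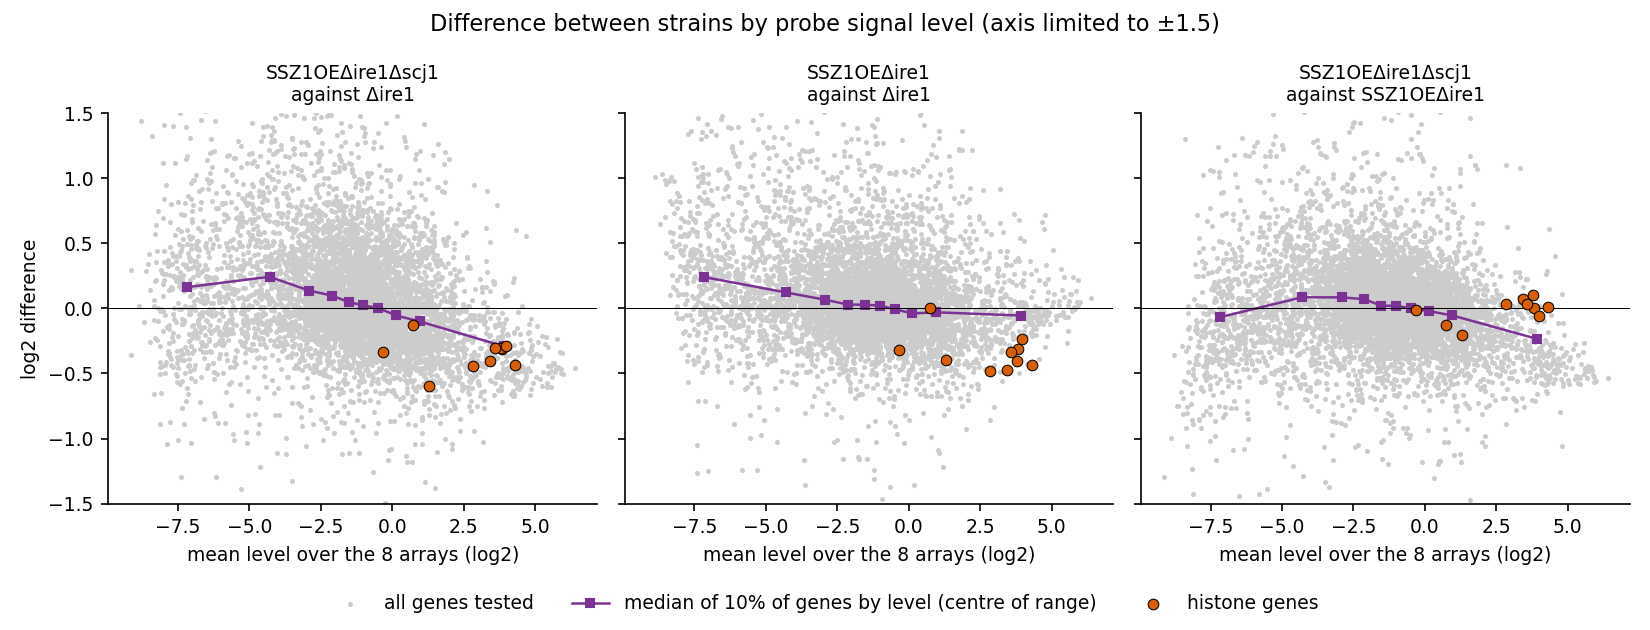
Log2 differences of all 6244 genes tested (grey) are plotted against the mean level of each probe over the 8 arrays, with the median of each of 10 equal bins of genes (squares) and the 10 histone genes (orange circles), in the same 3 comparisons. The 7 histone genes of the brightest bin lie at -0.45 to -0.29 in the first panel (bin median -0.29), with HTB2 (-0.60) and HHO1 (-0.34) further below their bins. In the second panel all but HTZ1 lie below the medians of their bins (brightest -0.055), and in the third the same 7 lie above that of theirs (-0.23).

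The choice of scaling set the size of these differences. Scaling on the spike-in probes moved the median of all genes to 0.31 in SSZ1OEΔire1Δscj1 against Δire1 and 0.20 in SSZ1OEΔire1 against Δire1. No histone gene was then called in either, beside 1.06% and 0.24% of all genes that fell. Relative to the median of all genes, the histone median was -0.34 and -0.39 in those comparisons with scaling on the 75th percentile, on the median or on spike-ins. Each of these scalings subtracts 1 value per array, so this relative median cannot differ among them. With quantile normalization, which gives all arrays the same distribution, it was -0.024 and -0.31. There 2 and 3 histone genes fell, beside 22.1% and 6.04% of all genes. So the move to quantile normalization took the relative histone median from -0.39 to -0.31 in the SSZ1OEΔire1 strain. In the SSZ1OEΔire1Δscj1 strain it went from -0.34 to -0.024.

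The Δire1 replicates did not move as a block over the family. Of the SSZ1OEΔire1 arrays, replicate 1 was above replicate 2 in all genes but HHO1, by a median of 0.19 over the core genes. On Δire1 replicate 2 the H2A genes were high and the H2B genes low: HTA1 and HTA2 each lay 0.11 above their Δire1 means, HTB1 lay at -0.21 and HTB2 at -0.31 from theirs. Over the 3 Δire1 arrays the log ratio of HTA1 to HTA2, copies on different chromosomes, ranged over 0.017, whereas that of HTA1 to its locus partner HTB1 ranged over 0.50 and that of HTA2 to HTB2 over 0.64. No such order of copies and partners held across the family. In the Δire1 strain the log ratio ranged over 0.039 for the H3 copies, 0.16 for the H4 copies and 0.17 for the H2B copies, beside 0.079 for the partners HHT1 and HHF1 and 0.20 for HHT2 and HHF2. The H3 copies ranged over 0.21 in the SSZ1OEΔire1Δscj1 strain and 0.20 in the SSZ1OEΔire1 strain, where the partners HHT2 and HHF2 ranged over 0.022 and 0.051. Copies of 1 histone have closely similar coding sequences, and whether a probe also takes up the mRNA of the other copy was not tested, since probe sequences were not used here.

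**Figure D4:**
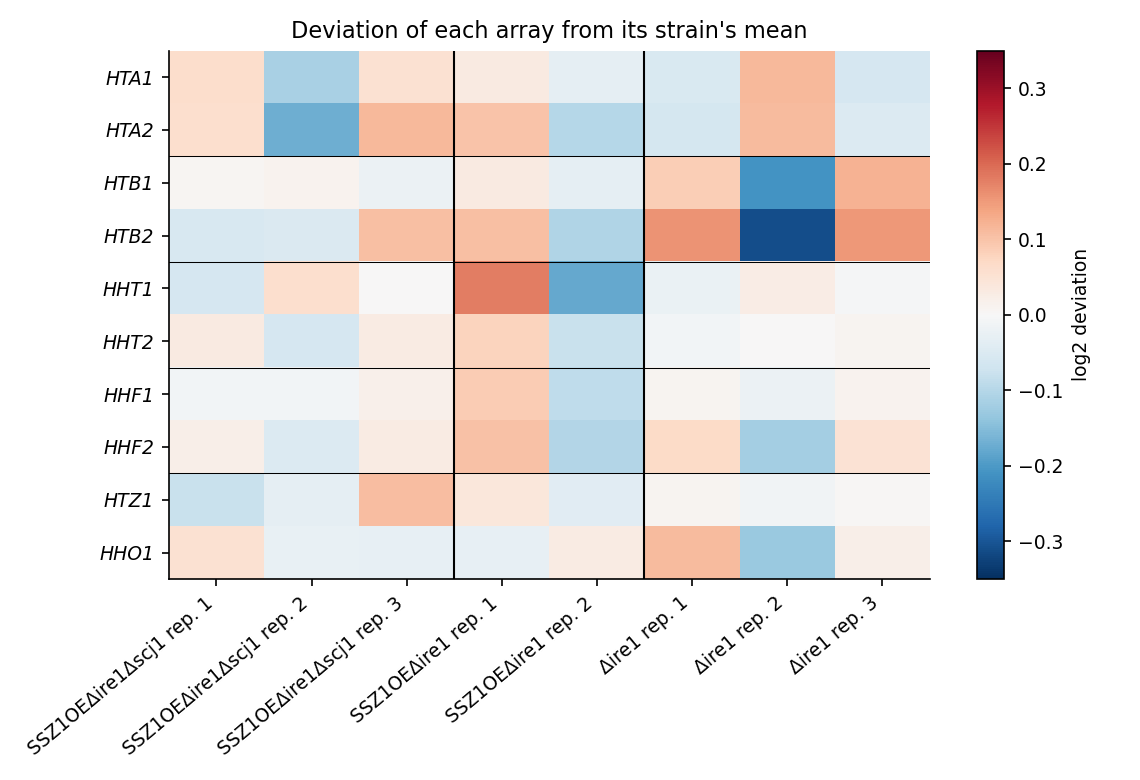
Each cell is the log2 deviation of 1 histone gene (rows, copies of 1 histone together) on 1 array (columns, SSZ1OEΔire1Δscj1, then SSZ1OEΔire1, then Δire1) from the mean of its strain. On Δire1 replicate 2 HTA1 and HTA2 are high (0.11 each) and HTB1 and HTB2 low (-0.21 and -0.31), and the 2 arrays of SSZ1OEΔire1 mirror each other by construction.

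Unequal change between copies or between locus partners was compared in 24 ways, 4 pairs of copies and 4 pairs of partners in each of 3 comparisons. Two-sided exact permutation tests over arrays cannot go below p = 0.1 with these group sizes, and after adjustment the lowest p was 0.60, so no pair was shown to change unequally. The estimate for the log ratio of HHT2 to HHF2 was 0.15 in SSZ1OEΔire1Δscj1 against Δire1 and 0.25 in SSZ1OEΔire1 against Δire1, and that of HTB1 to HTB2 was 0.27 in SSZ1OEΔire1Δscj1 against SSZ1OEΔire1, each with an adjusted exact permutation p of 0.60.

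The factors that act on histone genes did not move as one. Of 12 regulators, 2 fell and 1 rose in SSZ1OEΔire1Δscj1 against Δire1, where 16.9% of all genes fell and 21.3% rose, so the share that fell was near that of all genes. SPT21, which acts with Spt10 to activate histone genes, stood at -1.42, -1.28 and -1.15 in the SSZ1OEΔire1Δscj1 strain and at -0.63, -0.96 and -0.71 in the Δire1 strain, and fell by 0.52 (SE 0.11, adjusted p = 0.00966). ASF1, a histone chaperone that works with the HIR repressor, fell by 0.51 (SE 0.10, adjusted p = 0.00872), and RTT106, a chaperone recruited by HIR, rose by 0.36 (adjusted p = 0.0338). No regulator was called in SSZ1OEΔire1 against Δire1, where 3.88% of all genes fell and 7.48% rose. At an unadjusted p under 0.05 in the limma fit, 3 of 12 passed. SPT21 alone of these was lower, beside 11.3% of all genes lower at that p. SWI4, the DNA-binding subunit of SBF, stood at -2.87, -3.02 and -2.63 in the SSZ1OEΔire1Δscj1 strain and at -2.28 and -2.25 in the SSZ1OEΔire1 strain. It was the 1 regulator called between these strains, where it fell by 0.58 (SE 0.13, adjusted p = 0.0338), beside 5.57% of all genes that fell.

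Among 17 histone chaperones and assembly factors, 3 rose and 3 fell in SSZ1OEΔire1Δscj1 against Δire1, shares near the 21.3% and 16.9% of all genes. HAT1, a histone acetyltransferase for new H4, rose by 0.53 and NHP6B, a DNA-bending partner of the FACT complex, by 0.35. VPS75, a chaperone that works with the acetyltransferase Rtt109, fell by 0.45 and SPT16, a FACT subunit, by 0.33. In SSZ1OEΔire1 against Δire1, where 3.88% of all genes fell and 7.48% rose, only CHZ1, a chaperone of the Htz1-H2B dimer, was called. It stood at 2.53 and 2.68 in the SSZ1OEΔire1 strain and at 1.13, 1.86 and 1.17 in the Δire1 strain, and rose by 1.22 (SE 0.25, adjusted p = 0.0239). VPS75 was the 1 member called in SSZ1OEΔire1Δscj1 against SSZ1OEΔire1, where it fell by 0.54 (adjusted p = 0.0273), beside 5.57% of all genes that fell.

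The SWR1 complex deposits Htz1, INO80 is a related remodelling complex, and 18 genes of these complexes were measured. In SSZ1OEΔire1Δscj1 against Δire1 4 rose and 1 fell, beside 21.3% and 16.9% of all genes. Of these IES6, ARP6 and YAF9 rose by 0.56, 0.48 and 0.43, and BDF1, a bromodomain protein associated with SWR1, fell by 0.80 (SE 0.095, adjusted p = 0.00158). BDF1 stood at -2.46, -2.28 and -2.29 in the SSZ1OEΔire1Δscj1 strain, -1.86 and -2.05 in the SSZ1OEΔire1 strain and -1.67, -1.54 and -1.43 in the Δire1 strain. IES6 and SWC5 rose by 0.47 and 0.32 in SSZ1OEΔire1 against Δire1, and BDF1 fell by 0.41 (adjusted p = 0.0489). Over all genes 7.48% rose and 3.88% fell there. None of the 18 was called in SSZ1OEΔire1Δscj1 against SSZ1OEΔire1, beside 11.9% of all genes. There 3 had an unadjusted p under 0.05 in the limma fit, beside 31.8% of all genes.

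Of 20 DNA replication genes 5 fell and none rose in SSZ1OEΔire1Δscj1 against Δire1, beside 16.9% and 21.3% of all genes. Those that fell included POL2 (-0.72), POL1 (-0.61), POL30 (-0.57) and RAD27 (-0.33). POL2 and POL1 encode catalytic subunits of replicative polymerases, POL30 the sliding clamp PCNA and RAD27 the flap nuclease of Okazaki fragments. POL30 stood at 1.27, 1.34 and 1.45 in the SSZ1OEΔire1Δscj1 strain, 1.41 and 1.29 in the SSZ1OEΔire1 strain and 2.003, 1.77 and 1.99 in the Δire1 strain. It was the 1 replication gene called in SSZ1OEΔire1 against Δire1, where it fell by 0.57 (SE 0.10, adjusted p = 0.0154), beside 3.88% of all genes that fell. Of 10 MCM and pre-replicative genes, which license origins, MCM6, MCM4 and MCM3 fell by 0.57, 0.26 and 0.26 in SSZ1OEΔire1Δscj1 against Δire1. With spike-in scaling MCM4 and MCM3 turned to 0.025 and 0.030. CDC6, the origin loader, rose by 0.47 (adjusted p = 0.0398) in SSZ1OEΔire1 against Δire1, beside 7.48% of all genes that rose. Neither list had a gene called in SSZ1OEΔire1Δscj1 against SSZ1OEΔire1, beside 11.9% of all genes. There 2 of 20 replication and 5 of 10 MCM and pre-replicative genes had an unadjusted p under 0.05 in the limma fit, beside 31.8% of all genes.

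Of 15 G1/S genes controlled by SBF and MBF, 5 fell and 1 rose in SSZ1OEΔire1Δscj1 against Δire1, where 16.9% of all genes fell and 21.3% rose. RNR1, the large subunit of ribonucleotide reductase, fell by 0.77 (SE 0.14), NRM1, a co-repressor of MBF, by 0.57, and CDC21, thymidylate synthase, by 0.43. The cyclin gene PCL1 rose by 0.99 (SE 0.14, adjusted p = 0.00292), at 1.04, 0.69 and 0.87 in the SSZ1OEΔire1Δscj1 strain, -0.41 and 0.11 in the SSZ1OEΔire1 strain and -0.09, -0.17 and -0.12 in the Δire1 strain. MNN1, a mannosyltransferase, and RNR1 fell by 0.64 and 0.60 in SSZ1OEΔire1 against Δire1, where 3.88% of all genes fell and 7.48% rose. In SSZ1OEΔire1Δscj1 against SSZ1OEΔire1 PCL1 and the cyclin gene CLN1 rose by 1.02 and 0.84, beside 6.28% of all genes that rose. Of 14 G2/M genes 8 fell in SSZ1OEΔire1Δscj1 against Δire1, beside the same 16.9% of all genes, among them the transcription factor gene SWI5 (-0.75) and the bud neck genes BUD4 (-0.71) and HOF1 (-0.70). The mitotic cyclin gene CLB1 fell by 0.41 in SSZ1OEΔire1 against Δire1, beside 3.88% of all genes that fell. In SSZ1OEΔire1Δscj1 against SSZ1OEΔire1 the anaphase activator gene CDC20 and SWI5 fell by 0.59 and 0.54, beside 5.57% of all genes that fell.

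Against Δire1, the median differences of these lists were nearer 0 than that of the histone genes, except for G2/M genes in the SSZ1OEΔire1Δscj1 strain. In the SSZ1OEΔire1Δscj1 strain they were -0.11 for the regulators, -0.045 for the chaperones, -0.0018 for SWR1 and INO80, 0.022 for G1/S, -0.16 for DNA replication, -0.18 for the MCM list and -0.37 for G2/M, beside -0.32 for the histone genes. In the SSZ1OEΔire1 strain they ran from -0.23 for G1/S to 0.037 for the MCM list, beside -0.37. The cell cycle stage of the cultures was not given in the sources used here beyond early log phase, and a lower share of cells in S phase and less histone mRNA per S-phase cell cannot be told apart in RNA from whole cultures.

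**Figure D5:**
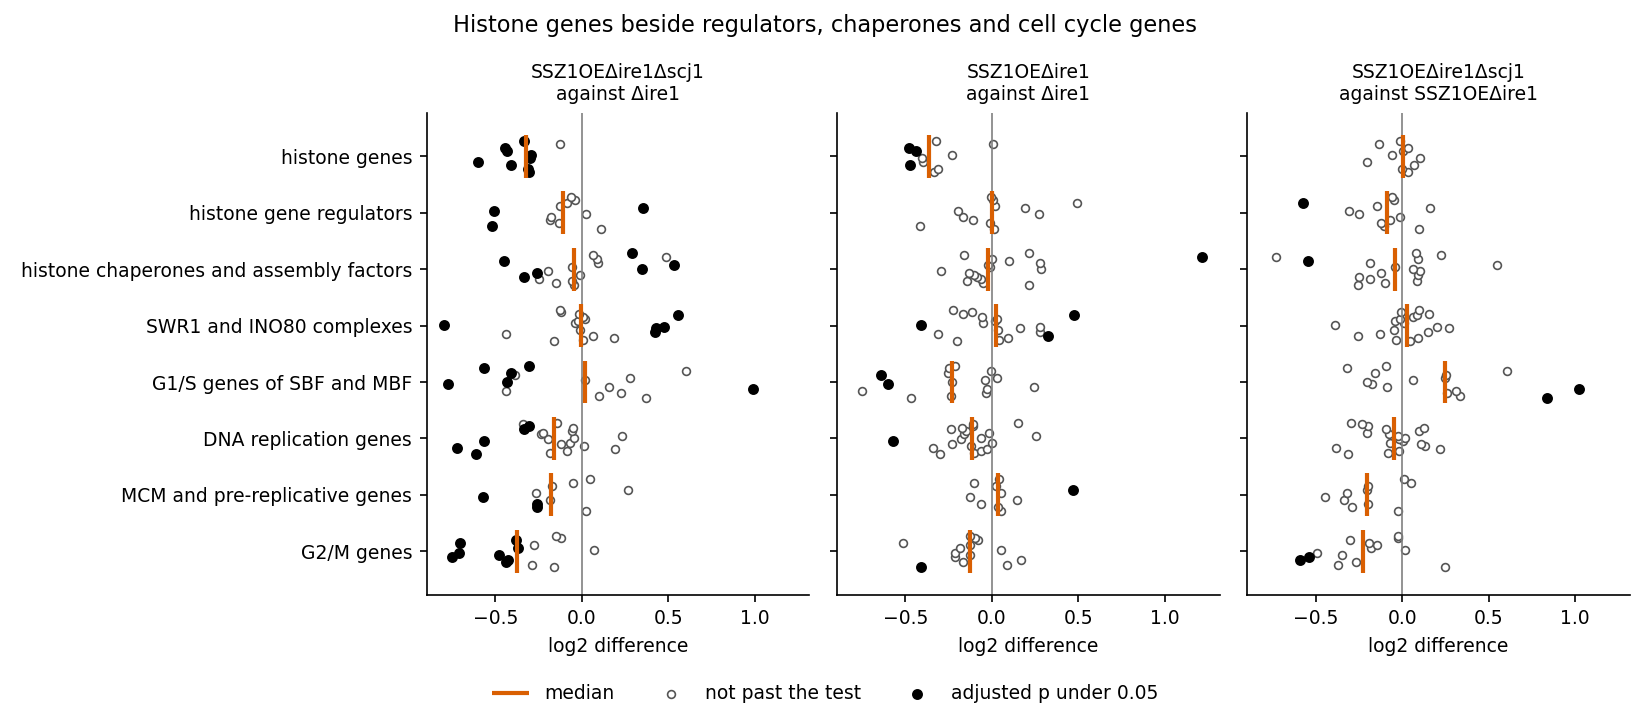
Each point is 1 gene of a list and its log2 difference, in the comparisons SSZ1OEΔire1Δscj1 against Δire1, SSZ1OEΔire1 against Δire1 and SSZ1OEΔire1Δscj1 against SSZ1OEΔire1. Filled points have an adjusted p under 0.05 and orange bars are medians. The histone genes cluster to the left in the first 2 panels (medians -0.32 and -0.37) and around 0 in the third (0.0036). In the first panel the G2/M genes also lie mostly to the left (median -0.37), and the other lists spread to both sides. With quantile normalization HTA2 and HHT2, and with spike-in scaling MCM3, MCM4 and HTZ1, lie to the right in the first panel.

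The genes on either side of the histone loci, 12 in all, were read to see how the surroundings of the loci stood. In SSZ1OEΔire1Δscj1 against Δire1 ADK1 beside HTA1-HTB1, UTP20 beside HTA2-HTB2 and NAN1 beside HHO1 fell by 0.49, 0.42 and 0.35, and PLB3 beside HTZ1 rose by 0.66. So 3 of 12 fell and 1 rose, beside 16.9% and 21.3% of all genes. ADK1 encodes adenylate kinase, UTP20 and NAN1 factors of ribosomal RNA processing and PLB3 a phospholipase B. In SSZ1OEΔire1 against Δire1 UTP20 alone was called, and it fell by 0.58 (SE 0.077, adjusted p = 0.0066), at 0.57 and 0.49 in the SSZ1OEΔire1 strain against 1.13, 1.101 and 1.11 in the Δire1 strain. Over all genes 3.88% fell and 7.48% rose there. The neighbours' medians were -0.063 and -0.072 in these comparisons. Both neighbours of HHT1-HHF1 (FLR1 and IPP1) and of HHT2-HHF2 (SIW14 and KTR5) were called in none of the 3 comparisons.

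Each core gene was centred on its mean over the 8 arrays and the 8 core genes were averaged, which gave a profile of -0.14, -0.19 and -0.10 in the SSZ1OEΔire1Δscj1 strain, -0.05 and -0.23 in the SSZ1OEΔire1 strain and 0.26, 0.19 and 0.27 in the Δire1 strain. Every Δire1 array was above every other array. Pearson's r to this profile over the 8 arrays was 0.99 for HHF1 and HHF2, 0.97 for HHT2, 0.93 for HTB1, 0.90 for HHT1, HTB2 and HHO1, 0.89 for HTA1 and 0.88 for HTA2, with each core gene itself part of the mean, and 0.53 for HTZ1. The 5 genes outside the family with the highest r were UTP10 (0.995), a factor of ribosomal RNA processing, SUP45 (0.995), the translation release factor, ELP3 (0.993), the catalytic subunit of Elongator, RRP12 (0.989), a ribosomal export factor, and RRP5 (0.988), a factor of ribosomal RNA cleavage. UTP10 stood at 0.95, 0.85 and 0.95 in the SSZ1OEΔire1Δscj1 strain, 1.01 and 0.86 in the SSZ1OEΔire1 strain and 1.47, 1.37 and 1.46 in the Δire1 strain. These correlations rest on 8 arrays of 3 strains that share a slide, the scaling and strain means, and are given as a description.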

How the data were processed

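Total RNA from 8 samples was measured on 8 one-colour Agilent arrays. The series text calls the samples independent, but nothing says that they came from separate cultures, so the p-values reflect only how these samples vary, a spread that may be technical. The authors' software for the deposited spot intensity values was Agilent Feature Extraction, version 10.7.1.1 in the submitters' processing notes. Background subtraction and spatial detrending had already been applied to the processed intensity, per the file headers. A deposited value table of log2 values from the authors states neither scale nor centring. It matched the scanner values scaled to each array's 75th percentile and centred on the probe's median, differing by a median of 0.00098 to 0.0039 and with column medians of -0.034 to 0.011, and served as an alternative.

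Outlier spots were dropped, the log2 processed signals of a probe's spots were averaged, and the 75th percentile of the non-control probes of that array was subtracted. A probe was tested if over 0.5 of its spots were well above background on all arrays of 1 group or more. Where a gene had several probes, the brightest was used. The test was limma (version 3.58.1, under R 4.3.3 with data.table version 1.17.8), with 3 group means over 8 arrays, 5 residual degrees of freedom before moderation and Benjamini-Hochberg adjustment over 6244 genes at 0.05, two-sided. The number of arrays limits the precision. The steps were tested on simulated data.

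The members and lists were chosen with earlier results of these data known. Genes named were the 10 histone genes, SSZ1, IRE1, SCJ1, CSE4, at most 4 called genes per list and comparison with the largest difference, the locus neighbours and the 5 genes most correlated with the core mean. LEU2 was named after its values were seen. Symbols and neighbours came from the RefSeq table of assembly R64, in which 5903 names matched and 673 kept the file's name. The array design is on another build, so no coordinates are given. Alternatives were other scalings, background correction, the deposited table, filters, spot and probe rules, fits with fewer groups, an intensity trend, array weights or blocks, and leaving out each array.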

Additional observations from a re-analysis of the deposited data

How the results depend on the processing

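In SSZ1OEΔire1Δscj1 against Δire1, 9 histone genes fell with a median of -0.32. Their number was 2 with quantile normalization, 0 with spike-in scaling and 4 with slide row as a block. Of all genes 22.1%, 1.06% and 5.89% then fell. The histone median was -0.087, -0.43 and -0.038 with quantile, median and spike-in scaling, in that order. In SSZ1OEΔire1 against Δire1, 3 fell with a median of -0.37. Their number was 5 with median scaling, normexp background correction or an intensity trend, and 9 with array weights. Of all genes 5.54%, 4.5%, 4.77% and 16.4% fell with these settings, in that order. It was 0 histone genes with spike-in scaling, slide row as a block or only the 2 groups compared, beside 0.24%, 1.11% and 1.73% of all genes. The histone medians were -0.43 (median scaling) and -0.19 (spike-ins). In SSZ1OEΔire1Δscj1 against SSZ1OEΔire1 quantile normalization gave 1 call, beside 666 of all 6244 genes, and a median of 0.26. Spike-in scaling gave a median of 0.12. Leaving out 1 array gave 2 to 8 histone genes that fell in SSZ1OEΔire1Δscj1 against Δire1, where 9.63% to 23.5% of all genes fell. Leaving out 1 Δire1 array gave 0 to 6 in SSZ1OEΔire1 against Δire1, where 1.11% to 9.47% fell. No histone gene was called in SSZ1OEΔire1Δscj1 against SSZ1OEΔire1 without 1 SSZ1OEΔire1Δscj1 array. The medians without 1 array were -0.35 to -0.33, -0.46 to -0.30 and -0.079 to 0.082 in these comparisons, in that order. HTA2 (0.014) and HHT2 (0.056) with quantile normalization, and MCM4 (0.025) and MCM3 (0.030) with spike-in scaling, changed sign in SSZ1OEΔire1Δscj1 against Δire1. Slide row as a block and leaving out arrays leave fewer arrays to compare. The cause of the other shifts was not tested. All other alternatives except the replicate block below kept these 3 numbers within 1.5 times.

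The companion lists of 12, 17, 18, 20, 10, 15 and 14 genes, with CSE4, held 37, 9 and 6 calls in the same order. Of all 6244 genes 2390, 709 and 740 were called. With spike-in scaling they held 8, 0 and 0, with array weights 71, 43 and 27, with slide row as a block 13, 0 and 0, and without 1 array 18 to 60, 0 to 28 and 0 to 8. Only the 2 groups compared gave 2 in SSZ1OEΔire1 against Δire1 (377 of all genes), and normexp gave 10 in SSZ1OEΔire1Δscj1 against SSZ1OEΔire1 (1076 of all genes). Of all calls, 44.2%, 34.1% and 47% were lower, and this share was 59.4%, 52.7% and 46.5% with quantile normalization, 61.4%, 48.3% and 55% with median scaling, and 5.42%, 8.24% and 15.4% on spike-ins.

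The correlations of deviations from the strain means were -0.038 to 0.21 for samples with the same replicate number. They were -0.15 to 0.13 for samples with different numbers. Deviations from means of 2 or 3 arrays are tied to each other, so these correlations cannot show whether a number stands for a shared batch. With the number as a replicate block, 6, 1 and 0 histone genes fell, with medians of -0.32, -0.33 and -0.0062. Of all genes 13.9%, 1.3% and 3.83% then fell. Companion genes called were 1 in SSZ1OEΔire1 against Δire1 and 3 in SSZ1OEΔire1Δscj1 against SSZ1OEΔire1, beside 288 and 594 of all genes.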
